A study of Mus musculus with 6 samples.

Results

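The enzymes that build heme were examined in RNA-seq data of male mouse embryos at E9.5. The 8 genes were taken by symbol from a table of 24207 loci, namely *Alas1*, *Alas2*, *Alad*, *Uros*, *Urod*, *Cpox*, *Ppox* and *Fech*, and each was found at 1 entry. Whole embryos of 2 genotypes were compared, 3 *Smchd1*+/+ embryos and 3 *Smchd1*MommeD1/MommeD1 embryos, the latter homozygous for an ENU-induced nonsense mutation of *Smchd1*, which encodes an epigenetic modifier required for X inactivation. All embryos were male, and their genotypes were read from the yolk sac. The labels name C57Bl6/J x FVB/n as the background strain, whereas the text of the study describes a backcross to a different inbred strain, and this was not resolved here. The authors' table gives 1 value per genotype, pooled over its embryos, in FPKM, a measure of fragments scaled to transcript length and to all mapped fragments. Values of single embryos were not used, so that no error between embryos and no test can be given, and the depth is unknown. *Smchd1* itself measured 34.0 FPKM in the wildtype against 2.12 FPKM in the mutant.

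Heme is the iron-containing ring that binds oxygen in haemoglobin and carries electrons in cytochromes. Its synthesis starts in the mitochondrion, where 5-aminolevulinate synthase joins glycine and succinyl-CoA, continues in the cytosol and ends in the mitochondrion, where iron is inserted. The first step has a pair of enzymes from different genes. *Alas1* is expressed in most cells, while *Alas2*, on the X chromosome, is specific to red cell precursors, where it supplies heme for haemoglobin. In midgestation embryos the circulating red cells are primitive erythroid cells that arise in the yolk sac. The later enzymes are each encoded by a single gene that serves all tissues.

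*Alas2* stood apart from the other heme enzymes. It measured 14.1 FPKM in *Smchd1*+/+ against 29.3 FPKM in *Smchd1*MommeD1/MommeD1 embryos, 2.07-fold higher in the mutant. The log2 ratio was 1.05, where each ratio is that of FPKM + 0.1 in mutant over wildtype embryos. *Alas1*, which encodes the enzyme of the same step in other tissues, was at 8.38 FPKM in the mutant against 8.98 FPKM in the wildtype, a log2 ratio of -0.10. All 8 enzymes averaged 1 FPKM or more, of which 1 was higher by at least 1.5-fold in mutant embryos and 0 were lower by as much. Over 11863 named loci averaging 1 FPKM or more, 3.22% were higher and 1.06% were lower by that fold. A higher level by at least 2-fold was found for 0.868% of these loci, and for 0.217% of the 4138 loci whose mean FPKM was within 2-fold of that of *Alas2*. At this abundance, 8 loci including *Alas2* had a log2 ratio as high as its own.

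**Figure D1:**
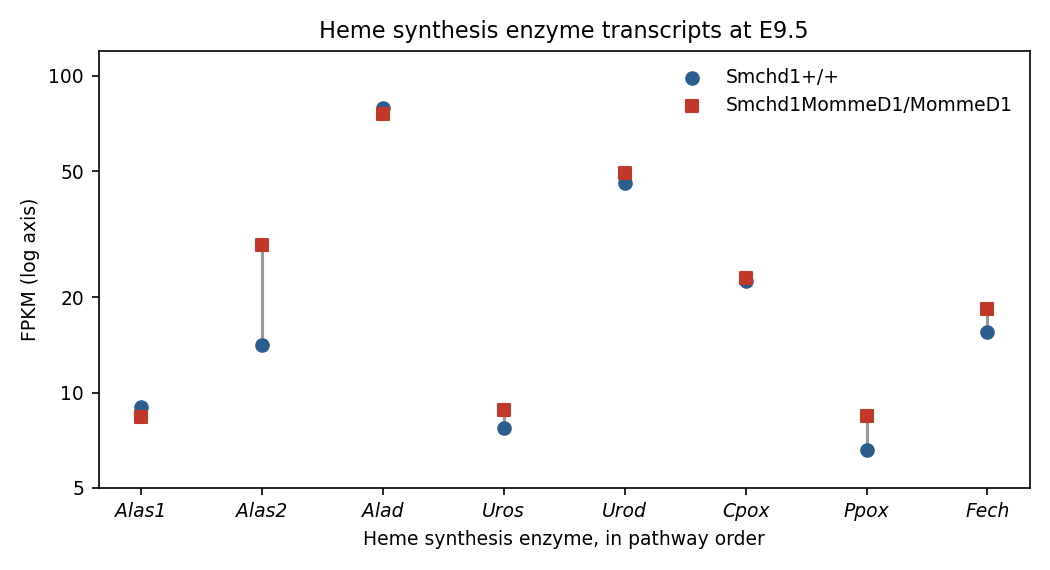
Transcript levels of the 8 heme synthesis enzymes in pathway order, in FPKM on a log axis. Circles are Smchd1+/+ and squares Smchd1MommeD1/MommeD1 embryos, each a single value pooled over 3 embryos with no error. The circle of *Alas2* lies at 14.1 and its square at 29.3 FPKM, and the symbols of every other enzyme differ by at most 1.28-fold.

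The cytosolic enzyme that follows, porphobilinogen synthase, is encoded by *Alad*. It had the highest level of the 8 enzymes in both genotypes, at 75.8 FPKM in the mutant against 79.0 FPKM in the wildtype, a log2 ratio of -0.06. *Uros*, which encodes the enzyme that closes the porphyrin ring, was at 8.83 and 7.73 FPKM (pairs of values give the mutant first throughout), a log2 ratio of 0.19. *Urod*, whose product trims the side chains of the ring in the cytosol, was at 49.2 and 45.9 FPKM, a log2 ratio of 0.10. These genes were thus within 1.5-fold between genotypes.

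The last enzymes act at the mitochondrion. *Cpox*, encoding coproporphyrinogen oxidase, was at 23.0 FPKM in the mutant against 22.4 FPKM in the wildtype, a log2 ratio of 0.04. *Ppox*, encoding protoporphyrinogen oxidase, was at 8.41 and 6.58 FPKM, a log2 ratio of 0.35 and the largest after that of *Alas2*. *Fech*, encoding the ferrochelatase that inserts iron, was at 18.3 and 15.5 FPKM, a log2 ratio of 0.24. The ratios of the 7 enzymes other than *Alas2* therefore ran from -0.10 to 0.35, and 5 of these were above 0. Their median log2 ratio was 0.10, and that of all 8 enzymes was 0.14. Over all named loci at a mean of 1 FPKM or above, the median was -0.01, with quartiles at -0.11 and 0.11. In that distribution, *Ppox* lay at percentile 92.6, *Fech* at percentile 88.2, *Uros* at percentile 84.2 and *Alas2* at percentile 99.2. *Urod* lay at percentile 72.6, *Cpox* at percentile 61.0, *Alad* at percentile 36.5 and *Alas1* at percentile 27.8, which describes the pooled values and is not a test.

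**Figure D2:**
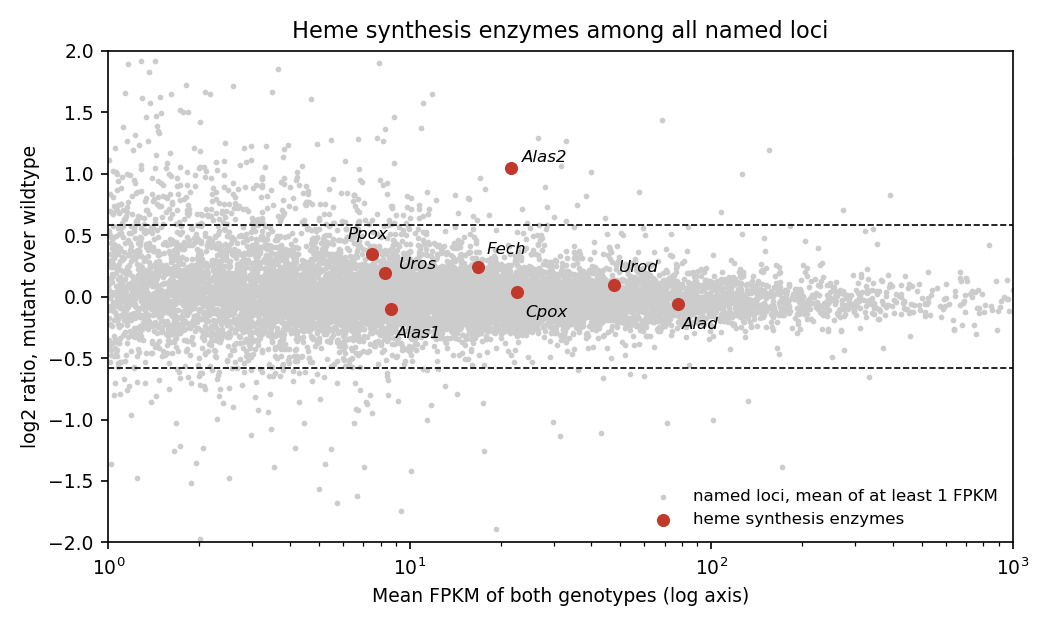
Log2 ratio of mutant over wildtype embryos against mean FPKM on a log axis, for named loci averaging 1 FPKM or more (grey) and the 8 heme synthesis enzymes (red). Dashed lines mark 1.5-fold, and 120 loci lie outside the axes. *Alas2*, at a log2 ratio of 1.05, is the single enzyme beyond the lines.

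FPKM is scaled to transcript length, so levels can be set side by side between genes. In *Smchd1*+/+ embryos the order from high to low was *Alad*, *Urod*, *Cpox*, *Fech*, *Alas2*, *Alas1*, *Uros* and *Ppox*. In *Smchd1*MommeD1/MommeD1 embryos it was *Alad*, *Urod*, *Alas2*, *Cpox*, *Fech*, *Uros*, *Ppox* and *Alas1*. *Alas2* thus stood at rank 5 in wildtype and rank 3 in mutant embryos, and *Alas1* at rank 6 and rank 8. The 3 lowest enzymes of the mutant order lay between 8.38 and 8.83 FPKM, and without an error their order cannot be taken as settled. Summed over the 7 enzymes other than *Alas2*, the level was 191.9 FPKM in the mutant against 186 FPKM in the wildtype.

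The comparison of *Alas2* with *Alas1* was made within each genotype, where the scaling between genotypes has no part. *Alas2* was 3.49 times as abundant as *Alas1* in *Smchd1*MommeD1/MommeD1 embryos and 1.57 times in *Smchd1*+/+ embryos. The log2 ratio of *Alas2* exceeded that of *Alas1* by 1.14, a 2.21-fold difference on the scale of FPKM + 0.1. *Alas2* made up 77.7% of the summed transcripts of both genes in mutant and 61.1% in wildtype embryos, so it was the more abundant form in both. The sum was 37.7 FPKM in the mutant against 23.1 FPKM in the wildtype, 1.63-fold higher in the mutant. *Alas2* differed by 15.1 FPKM and *Alas1* by -0.596 FPKM, mutant minus wildtype. Relative to *Alad*, the enzyme of the following step, the sum stood at 49.7% in mutant and 29.2% in wildtype embryos. The level of *Alas2* was 1.60 times that of *Fech*, the last enzyme, in mutant embryos and 0.913 times in wildtype embryos.

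**Figure D3:**
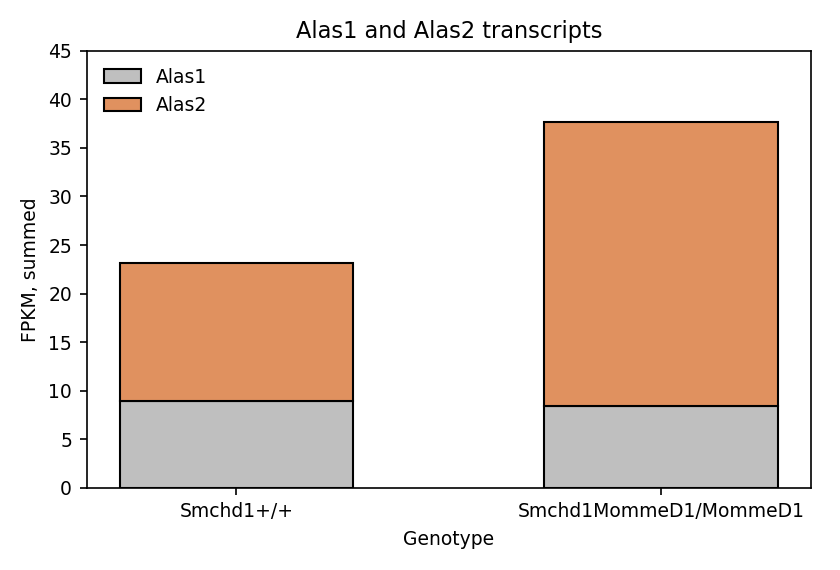
Summed FPKM of *Alas1* (grey) and *Alas2* (orange) in each genotype, 1 pooled value per gene and genotype with no error. The grey parts are 8.38 and 8.98 FPKM high, and the orange part is 14.1 FPKM in Smchd1+/+ and 29.3 FPKM in Smchd1MommeD1/MommeD1 embryos.

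The transcripts of this pair of genes differ in sequence. The longest identical stretch between the coding transcripts of *Alas1* and *Alas2* in GENCODE M21 was 20 bases, against reads of 100 bases. Neighbouring genes are a separate matter, as the libraries were nondirectional. *Alas2* lies on the X chromosome of mm10, on the plus strand from 150547375 to 150570638. The authors' table places it in a locus from 150547417 to 150643869 that also holds *Pfkfb1* and *Apex2*. Exons of *Apex2*, on the opposite strand, cover 12.9% of the exon bases of *Alas2*, and reads there cannot be assigned by strand. *Apex2* was at 11.1 FPKM in the mutant against 11.8 FPKM in the wildtype. *Pfkfb1* was at 3.19 and 3.54 FPKM. Both neighbours were thus within 1.5-fold between genotypes, with log2 ratios of -0.09 and -0.14. Of the other enzymes, *Ppox* shares 17.5% of its exon bases with *B4galt3* and *Cpox* 3.06% with *Gpr15*, each on the opposite strand. Reads there likewise cannot be assigned by strand, and the levels of *B4galt3* and *Gpr15* were not compared. This limits the ratio of *Ppox* in particular.

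*Alas2* is also the single X-linked gene among the 8 enzymes. On the X chromosome, 418 named loci averaged 1 FPKM or more, of which 2.87% were higher by at least 1.5-fold in mutant embryos. The median log2 ratio of these loci was -0.07, and 4 of them, *Alas2* included, had a ratio as high as its own.

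Upstream sequences are shown for *Alas2* and *Alas1*, the pair compared, and for the other enzymes with letters that GATA factors, such as the erythroid factor GATA1, are known to bind. The set of RefSeq promoters used held 10 transcript starts for 7 of the enzymes on GRCm38.p6, the assembly of mm10. It had no entry for *Fech*, whose upstream sequence was not searched. The 250 bases before each start were searched on both strands for the GATA letters, that is AGATAA with T also taken at its start and G at its end, and for the CACCC letters, either CCACACCC or CCCCACCC, a box bound by erythroid Krüppel-like factors. Matches are in capitals below, in the direction of transcription, on chrX:150547167-150547416 (plus strand) for *Alas2*, chr9:106247955-106248204 (minus) for *Alas1*, chr16:58669958-58670207 (plus) for *Cpox* and chr7:133702501-133702750 (minus) for the inner start of *Uros*.
Alas2: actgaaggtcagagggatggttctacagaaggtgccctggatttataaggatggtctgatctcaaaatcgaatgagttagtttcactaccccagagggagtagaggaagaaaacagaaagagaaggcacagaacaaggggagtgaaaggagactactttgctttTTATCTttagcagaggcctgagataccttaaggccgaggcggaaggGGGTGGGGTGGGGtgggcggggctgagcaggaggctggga
Alas1: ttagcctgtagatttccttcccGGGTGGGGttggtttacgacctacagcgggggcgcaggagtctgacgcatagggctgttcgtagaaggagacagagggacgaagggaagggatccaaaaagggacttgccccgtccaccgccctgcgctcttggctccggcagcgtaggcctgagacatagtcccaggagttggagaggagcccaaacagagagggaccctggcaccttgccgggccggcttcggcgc
Cpox: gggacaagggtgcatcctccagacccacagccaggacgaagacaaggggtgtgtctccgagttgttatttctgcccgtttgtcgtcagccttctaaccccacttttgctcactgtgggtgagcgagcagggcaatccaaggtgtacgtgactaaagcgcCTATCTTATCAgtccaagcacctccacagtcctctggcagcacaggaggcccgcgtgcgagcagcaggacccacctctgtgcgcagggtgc
Uros: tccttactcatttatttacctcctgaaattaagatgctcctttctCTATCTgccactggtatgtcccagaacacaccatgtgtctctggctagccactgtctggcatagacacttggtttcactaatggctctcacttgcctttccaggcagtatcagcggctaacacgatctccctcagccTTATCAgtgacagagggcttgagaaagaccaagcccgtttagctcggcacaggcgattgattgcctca

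The start of *Alas2* had a GATA match beginning 86 bases before it and a pair of overlapping CACCC matches at 40 and 35 bases. It was the 1 of 10 starts with both kinds of letters, which 2.32% of 32851 promoters of the same length hold. The upstream start of *Alas1* had a CACCC match at 228 bases and no GATA match. *Cpox* had GATA matches at 91 and 86 bases that overlap by their end base, and the inner start of *Uros* had them at 205 and 68 bases. GATA letters stood at 3 of the 10 starts and in 26.5% of all promoters, and CACCC letters at 2 starts and in 11.8%. CAGTGN, the loop letters of iron-responsive elements, was found in the first 50 transcribed bases at 1 start, one of *Alad*, and in 7.08% of all promoters. Bases further into the transcripts were not searched. The search therefore cannot show that *Alas2* or another enzyme lacks such an element, nor that *Alad* has one. A match describes the letters and is not evidence of binding. *Cpox* and *Uros*, with GATA letters, had log2 ratios of 0.04 and 0.19.

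The partners of the pathway supply its substrates, iron and iron-sulphur clusters. All 19 listed genes had a mean of at least 1 FPKM, and 0 were higher or lower by 1.5-fold, with a median log2 ratio of 0.08. The shares over all named loci averaging 1 FPKM or more were 3.22% higher and 1.06% lower. Counts of 0 or 1 in lists of this size lie near those shares. Among them, *Slc25a38*, the mitochondrial glycine carrier of red cell precursors, was at 16.5 FPKM in the mutant against 15.0 FPKM in the wildtype. *Slc25a37*, which brings iron into the mitochondria of these cells, was at 16.8 and 15.5 FPKM. *Abcb10*, a mitochondrial transporter needed for haemoglobin synthesis, was at 16.5 and 13.1 FPKM, a log2 ratio of 0.34. The largest ratios of the list were those of *Fam210b* (0.38), *Fdxr* (0.36) and *Abcb6* (0.34). Of the 19 partners, 15 had a ratio above 0 and 4 below. The most abundant partners were *Glrx5*, a glutaredoxin of iron-sulphur cluster assembly, at 118 and 115 FPKM, and *Tmem14c*, a protoporphyrinogen importer, at 117 and 106 FPKM. Of 16 genes of heme export, breakdown and use averaging 1 FPKM or more, 1 was higher by at least 1.5-fold and 0 were lower, with a median of 0.00 that changed sign under some settings. That gene was *Blvrb*, a biliverdin reductase abundant in red cells, at 19.9 and 12.6 FPKM, a log2 ratio of 0.65. The most abundant were *Pgrmc1*, a heme-binding membrane protein, at 109 and 111 FPKM, and *Hmox2*, the constitutive heme oxygenase, at 28.6 and 27.9 FPKM. Housekeeping mitochondrial enzymes, 18 in number, were all within 1.5-fold (median 0.05), with *Atp5b* at 797 and 787 FPKM and *Hspd1* at 560 and 591 FPKM.

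Many red cell genes were also higher in mutant embryos. Of 23 entries of erythroid markers averaging 1 FPKM or more, 15 were higher by at least 1.5-fold in mutant embryos and 0 were lower by as much. Over all named loci averaging 1 FPKM or more, the shares were 3.22% and 1.06%. The erythroid median log2 ratio was 0.65, or 0.49 and thus within 1.5-fold with 1 FPKM added. *Hbb-y*, an embryonic beta-like globin, was at 4191 FPKM in the mutant against 1787 FPKM in the wildtype, a log2 ratio of 1.23. *Hba-x*, the embryonic zeta globin, was at 4602 and 2274 FPKM, a log2 ratio of 1.02. The adult alpha globins *Hba-a1*/*Hba-a2*, whose copies are nearly identical, had log2 ratios of 1.12 at each of their 2 entries. *Gata1*, the erythroid transcription factor, was at 5.10 and 2.56 FPKM, a log2 ratio of 0.97. The erythroid markers summed to 16286 FPKM in the mutant against 7719 FPKM in the wildtype, a sum made up almost wholly of globins. The 18 other entries summed to 175.5 and 141 FPKM, and 9 of the 17 that averaged 1 FPKM or more were higher by at least 1.5-fold (median 0.59). None of the erythroid markers was at 0 in either genotype, and their part in the *Alas2* difference was not tested. In whole embryos, more cells of a type and more RNA per cell cannot be told apart.

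Set against these genes within each genotype, *Alas2* stood in similar proportion to the embryonic globins, and 3 of the 23 erythroid entries had a log2 ratio as high as its own. The ratio of *Alas2* to *Hba-x* was 0.00636 in mutant and 0.00621 in wildtype embryos, and that of *Alas2* to *Gata1* was 5.74 and 5.52. Its log2 ratio exceeded that of *Hba-x* by 0.03, that of *Hbb-bh1* by 0.04 and that of *Gata1* by 0.08, and differed from that of *Hbb-y* by -0.18. Among the non-globin entries, *Gata1* was the nearest. The log2 ratio of *Alas2* exceeded those of the other non-globin entries by 0.23 (*Rhag*) to 1.23 (*Lmo2*), and that of *Hbb-b1*/*Hbb-b2* by 0.37. The transferrin receptor *Tfrc*, which takes up iron in red cell precursors and other dividing cells, was at 60.0 and 60.1 FPKM. *Alas2* was thus 0.488 times as abundant as *Tfrc* in mutant and 0.235 times in wildtype embryos. *Hbb-bh1*, *Hbb-b1*/*Hbb-b2*, *Gata1*, *Rhag*, *Lmo2* and *Tfrc* were picked out after their values were seen.

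**Figure D4:**
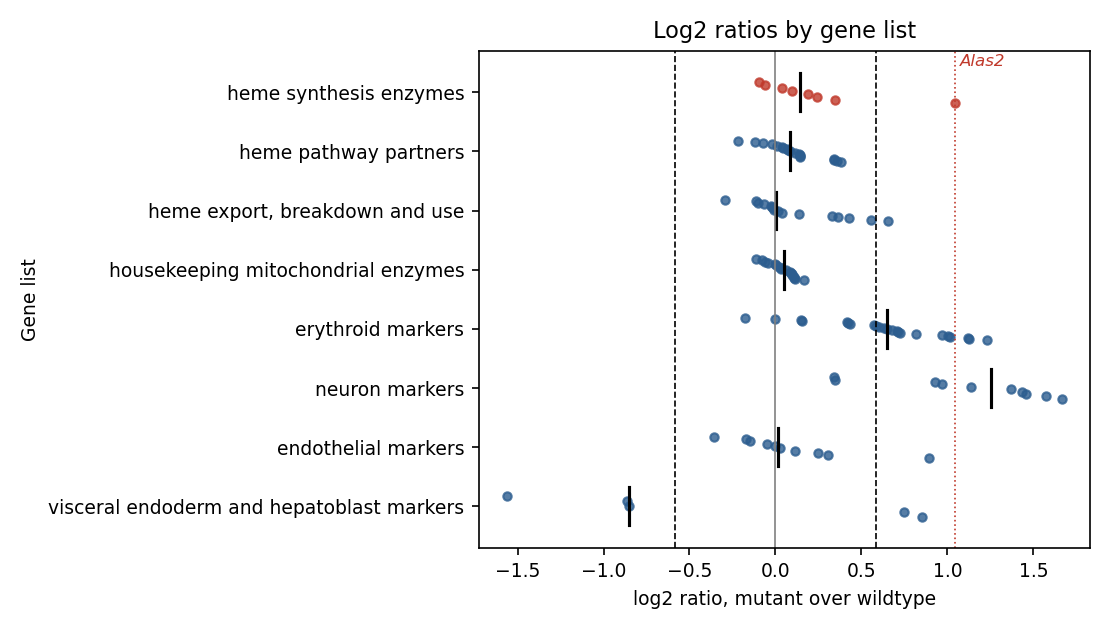
Log2 ratio of mutant over wildtype embryos for members of each gene list with a mean of at least 1 FPKM. Each point is a table entry, black bars are medians, dashed lines mark 1.5-fold and the dotted line marks *Alas2*. The other heme enzymes, their partners and housekeeping mitochondrial enzymes lie between the dashed lines. The median of all 8 enzymes, *Alas2* included, lies at 0.14 and the erythroid median at 0.65.

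Markers of other cells of the embryo gave mixed values, set beside the 3.22% of all named loci that were higher and the 1.06% that were lower by 1.5-fold. Of 10 neuron markers, 8 were higher by at least 1.5-fold in mutant embryos (median log2 ratio 1.255), led by *Dcx*, a microtubule protein of young neurons, at 5.37 and 1.62 FPKM. Their levels summed to 236 and 112 FPKM. Of 10 endothelial markers, 1 was higher by that fold, namely *Robo4* at 2.22 and 1.15 FPKM, and the median was 0.01, which changed sign under some settings. Of 5 visceral endoderm and hepatoblast markers averaging 1 FPKM or more, 2 were higher and 3 lower by that fold. The median was -0.85. The higher ones were the alpha-fetoprotein gene *Afp*, the most abundant of the list, at 14.7 and 8.10 FPKM, and the transferrin gene *Trf* at 4.43 and 2.60 FPKM. The lower ones were the transthyretin gene *Ttr* at 2.48 and 7.51 FPKM, the retinol-binding protein gene *Rbp4* at 6.46 and 11.8 FPKM and the apolipoprotein gene *Apoa1* at 1.67 and 3.13 FPKM. All 10 of that list summed to 31.9 FPKM in the mutant against 37.2 FPKM in the wildtype. The 10 macrophage markers summed to 3.57 and 1.78 FPKM, with *Ptprc* listed at 0 in wildtype embryos, and 1 of them, *Cd68*, had a mean of at least 1 FPKM (log2 ratio 0.10). The part of these cell types in the values of the heme enzymes was not tested.

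The entries most like *Alas2* were sought among loci with a mean FPKM within 2-fold of its own, by the nearness of their log2 ratio over the 2 pooled values. They were *Fabp7* (log2 ratio 1.06), *Aes* (1.01), *Stmn2* (0.97), *Mt1* (0.89) and *Oxct1* (0.88). *Fabp7* encodes a fatty acid-binding protein of radial glia and *Stmn2* a neuronal stathmin. With 2 values per gene, the measure describes only the size of the difference.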

How the data were processed

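Libraries of 6 male embryos, 3 for each genotype in the labels, were sequenced by the authors as nondirectional single-end reads of 100 bp. Reads were aligned by the authors with TopHat2 2.0.6 and Bowtie2 2.0.2 to mm10, and per the labels Cufflinks and Cuffdiff 2.0.2 followed. For each locus the deposited table holds an FPKM value of either genotype, pooled over embryos by the authors. Its fold changes, test statistics, p-values, q-values and significance calls are the authors' own comparison and were not used. The columns were assigned to genotypes from the supplement of the study.

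Ratios were computed here as log2 of mutant over wildtype FPKM, with 0.1 FPKM added to each value. Loci with a symbol and an estimate numbered 22966, of which 11863 had a mean of at least 1 FPKM. A fold of 1.5 in either direction was counted, without a test. These steps were run on a copy of the wildtype values with known folds put in and no noise. That checks the code and not how reliable the counts are. The members and gene lists were chosen with earlier results of these data known. Named genes were all members, the members of other lists past 1.5-fold (at most the 4 largest) or the 2 most abundant, and the 5 entries most like *Alas2*. *Slc25a38*, *Slc25a37*, *Abcb10*, *Fam210b*, *Fdxr*, *Abcb6*, *Gata1*, *Hbb-bh1*, *Hbb-b1*/*Hbb-b2*, *Rhag*, *Lmo2*, *Tfrc* and *Trf* were added after their values were seen. In all lists 5 genes were found under older symbols through RefSeq, and 1 erythroid marker, *Ahsp*, was not found. The result of 1 further gene is not reported here. Alternatives were other pseudocounts, filters, folds and scalings. A planned comparison of the *Alas1* and *Alas2* proteins was not run. Exon overlaps came from coding genes of GENCODE M21. Python 3.11.15, numpy 2.4.6, pandas 2.3.3 and matplotlib 3.10.9 were used.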

Additional observations from a re-analysis of the deposited data

How the results depend on the processing

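No paired analysis was possible because the authors' table has 1 pooled value per genotype, and leaving out single embryos could not be run for the same reason. With no error between embryos, a value was taken as moved when its sign or its side of 1.5-fold changed, or when it shifted by at least 1.5-fold. The log2 ratios of the 8 enzymes kept their sign and side in all 40 alternatives, from 1.001 to 1.05 for *Alas2* and from -0.11 to -0.09 for *Alas1*. The scalings and added values tried change ratios at these levels little, so the count does not show that the ratios are stable between embryos. The difference of *Alas2* from *Alas1* ran from 1.09 to 1.15, and the median of the 8 enzymes from 0.10 to 0.15. At the lower fold tried, a log2 ratio of 0.32, 2 enzymes were past the fold, *Ppox* being the other. With 1 FPKM added, the erythroid median was 0.49. Rescaling to the same total gave -0.014 for genes of heme export, breakdown and use and -0.0038 for endothelial markers. Without a filter on low values these export genes gave -0.0086 and macrophage markers 0.76. Among members averaging 5 FPKM or more, the export genes gave -0.012, endothelial markers -0.0036, and visceral endoderm and hepatoblast markers -0.00035, while no macrophage marker was left. The value of -0.00035 is the median of *Rbp4* and *Afp* alone, whose ratios were opposite in sign. The filters changed which members were counted, and a larger added value shrinks the ratios of low entries most. Rescaling to the same total lowered the log2 ratios by about 0.017. That is more than the medians of 0.0022 for the export genes and 0.013 for endothelial markers, which changed sign. The scalings shifted the log2 ratios by at most 0.017.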
